A study of Mus musculus with 4 samples.

Results

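Saa3, Lbp, Lcn2, Hp and Cp encode acute-phase proteins, the secreted proteins whose production climbs during inflammation. These 5 genes, of 30406 measured in every library, were chosen by their symbols because Saa3 had the largest rise in LMC-like cells of the TNF-Tg library. The levels that led to that choice are therefore given as a description with no test. The data are droplet single-cell RNA counts from popliteal lymphatic vessels (PLVs), the collecting lymphatics that drain the ankle joint, and the adjacent superficial saphenous vein (SSV), dissected, digested and sorted together. 4 libraries were made, each from 3 pooled mice of the C57BL/6J background. The WT library (9 months) and the TNF-Tg library (9 months) were sorted on scatter and viability from male mice, the TNF-Tg mice carrying a human TNF transgene and having severe ankle arthritis. The 2 tdT libraries (tdT1 and tdT2) came from male and female Cspg4-Cre+/-;Ai9-tdTomato+/- mice over 8 months old with no TNF transgene, sorted for tdTomato, which marks cells that have expressed Cre from the Cspg4 (NG2) promoter at any time.

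Acute-phase proteins are best known from the liver, where IL-6 acting through STAT3, and IL-1 and TNF acting through NF-kB and C/EBP factors, raise their transcription. Several are also made outside the liver, by macrophages, neutrophils, fat cells and stromal cells. Saa3 is the mouse serum amyloid A made mainly outside the liver, a lipid-binding protein that attracts and activates leukocytes. Lbp, lipopolysaccharide-binding protein, hands bacterial lipopolysaccharide to CD14. Lcn2, lipocalin 2, withholds iron from bacteria by binding their siderophores and is stored in neutrophil granules. Hp, haptoglobin, captures free haemoglobin for uptake through CD163. Cp, ceruloplasmin, carries copper and oxidises ferrous iron so that it can leave cells on transferrin.

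In the GRCm38 build the genes lie at chr7:46711998-46715700 on the minus strand (Saa3), chr2:158306493-158332852 on the plus strand (Lbp), chr2:32384633-32388252 on the minus strand (Lcn2), chr8:109575128-109579172 on the minus strand (Hp) and chr3:19957054-20009145 on the plus strand (Cp). The promoter windows of Saa3, Lcn2 and Cp are shown because no window was available for Lbp and Hp. Each runs from 250 bases before to 50 bases after a RefSeq transcript start in GRCm38, and 3 of the 5 genes had a window. They are chr7:46715627-46715926 on the minus strand (Saa3), chr2:32387690-32387989 on the minus strand (Lcn2) and chr3:19956999-19957298 on the plus strand (Cp, the second of 2 starts). Capitals mark matches to the C/EBP motif TTGCNNAA, read on either strand.
Saa3: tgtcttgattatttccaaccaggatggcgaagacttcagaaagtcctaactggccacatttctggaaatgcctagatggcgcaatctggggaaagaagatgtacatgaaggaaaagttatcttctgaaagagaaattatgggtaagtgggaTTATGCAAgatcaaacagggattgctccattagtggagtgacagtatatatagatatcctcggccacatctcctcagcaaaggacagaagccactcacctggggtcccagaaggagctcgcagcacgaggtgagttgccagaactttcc
Lcn2: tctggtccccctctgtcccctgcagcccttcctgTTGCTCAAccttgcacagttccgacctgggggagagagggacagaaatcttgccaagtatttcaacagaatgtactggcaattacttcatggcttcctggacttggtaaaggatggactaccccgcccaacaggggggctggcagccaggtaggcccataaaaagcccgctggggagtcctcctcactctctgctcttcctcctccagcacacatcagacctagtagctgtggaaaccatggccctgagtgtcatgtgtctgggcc
Cp: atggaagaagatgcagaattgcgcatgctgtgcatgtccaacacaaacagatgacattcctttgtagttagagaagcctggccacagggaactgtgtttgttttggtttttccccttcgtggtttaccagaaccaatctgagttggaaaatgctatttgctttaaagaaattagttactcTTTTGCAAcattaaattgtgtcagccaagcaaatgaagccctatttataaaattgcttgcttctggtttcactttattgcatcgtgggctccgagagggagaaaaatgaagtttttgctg
The C/EBP match began 99 bases before the start of Saa3, 216 bases before that of Lcn2 and 70 bases before the Cp start shown. The window of the other Cp start, chr3:19956804-19957103, held no match. Of all 32851 promoter windows of this length, 10.8% held the C/EBP motif, so a match is common. No STAT motif (TTCNNNGAA, in 8.30% of windows) and no NF-kB motif (in 8.46%) was found on either strand in these windows. The matches describe letters only and did not overlap another motif searched.

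The WT and TNF-Tg libraries held 5488 and 3391 cells with medians of 12660 and 10605 UMIs (unique molecules) per cell, and the tdT libraries were smaller (1504 and 454 cells). Library pairs shared 0 to 5 cell barcodes. The transgene is human and was not measured. The mouse Tnf gene gave 293 UMIs in WT (4.26 counts per 1000000 UMIs, CPM) and 407 in TNF-Tg (10.8 CPM). There was 1 library for WT and 1 for TNF-Tg, so condition and library cannot be told apart, no test between them was possible, and intervals below cover counting error only, at the 95% level. A level is a gene's UMIs, added up within a class, in CPM of all UMIs of that class, and a class was named "X-like" from its marker genes.

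LMC-like cells are the class named from a list of 13 markers for lymphatic muscle cells (LMCs), 1420 cells in WT and 528 in TNF-Tg. Of Ackr3 and Vegfd, which the study gave as higher in LMCs than in vascular smooth muscle cells, the list holds Ackr3. All 13 LMC-like markers were detected, with Myoc at 2417 CPM and Dpt at 2332 CPM in WT. Summed, the 13 markers were lower in TNF-Tg, at 13801 CPM against 19411 CPM in WT. Apart from Des, the contractile genes that define smooth muscle were nearly absent from it. Acta2, smooth muscle actin, had 7 UMIs in each library, and Myh11, smooth muscle myosin, and Lmod1 had none. The 7-gene contractile list summed to 37.0 (WT) and 30.6 CPM (TNF-Tg), nearly all of it Des, desmin, at 36.5 and 29.2 CPM. Dcn, a matrix proteoglycan of fibroblasts, stood at 17360 (WT) and 12868 CPM (TNF-Tg), and Pdgfra at 423 and 489 CPM. The label LMC therefore goes against most of the contractile genes, and LMC-like is used below only as the name of this class. The study itself reported limited Acta2, Myh11 and Tagln. It identified its muscle clusters by Cald1, Tpm1 and Pdgfrb, by a set of transcription factors and with reporter mice. It did not fully exclude that they are myofibroblasts from the surrounding tissue. VSMC-like cells, named from the markers for vascular smooth muscle cells (768 in WT, 607 in TNF-Tg), had less of the same list, 5.25 and 10.5 CPM.

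Saa3 was the member with the widest difference between the libraries. In LMC-like cells it had 28 UMIs in WT (1.20 CPM, interval 0.798 to 1.74) and 3030 UMIs in TNF-Tg (412 CPM, interval 397 to 427), which is 343-fold higher (interval 237 to 517) and first of the 8007 genes with at least 10 CPM in either library. The ratio depended on how the class was drawn: it was 6.76-fold (8.0 and 1.18 CPM) with clusters made without integration, where most of the cells with Saa3 left the class. VSMC-like cells held 3.38 (WT) and 21.7 CPM (TNF-Tg), 6.41-fold higher (interval 4.28 to 9.90). With clusters made without integration no higher level was seen, on 34 UMIs in WT and 6 in TNF-Tg (log2 ratio −0.27, interval −1.82 to 0.99). With the integrated clusters, 70.1% of the 4322 Saa3 UMIs of the TNF-Tg library lay in LMC-like cells. With classes drawn by a marker gate, LMC-like cells held 478 of them and cells that no gate took held 2386. Without integration LMC-like cells held 23 and an unnamed cluster 3154. In the WT library 68.6% lay in M2-macrophage-like cells of the integrated clusters, whose level was 18.9 CPM. Saa3 in M2-macrophage-like cells of TNF-Tg was 34.9 CPM, 1.84-fold higher (interval 1.46 to 2.31). This rested on few cells, since 61 of 1127 cells had a Saa3 UMI in WT and 10 of 264 in TNF-Tg, and without the 1% of cells with the most Saa3 the log2 ratio was −0.12. Inflammatory monocyte-like cells held 5 Saa3 UMIs in WT (6.83 CPM) and 329 in TNF-Tg (60.3 CPM), 8.84-fold higher (interval 3.75 to 27.4). The ratio was 14.5-fold with the marker gate and 9.15-fold in the clustering of all 4 libraries. Without integration it was 14.7-fold, with 666 of the 998 TNF-Tg UMIs in cells of the integrated M1-macrophage-like class. Each of these ratios rested on 5 UMIs in WT. Neutrophil-like cells held 2 Saa3 UMIs in WT and 1 in TNF-Tg.

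**Figure D1:**
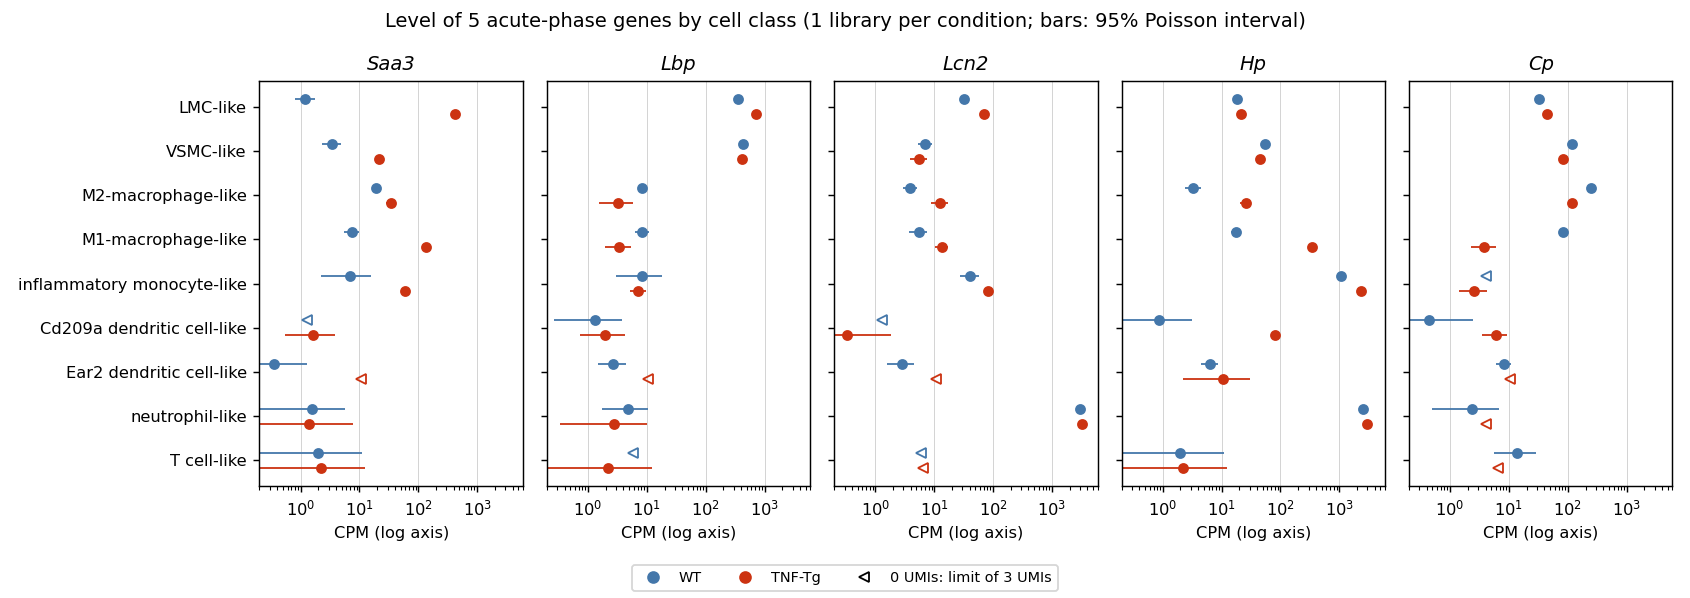
Level of each gene (CPM, log axis) in 9 cell classes of the WT (blue) and TNF-Tg (red) libraries, with bars for the 95% Poisson interval of the count and open triangles for 0 UMIs at the limit of 3 UMIs. Saa3 in LMC-like cells lay at 1.20 (WT) and 412 CPM (TNF-Tg), Lbp was high in LMC-like and VSMC-like cells of both libraries, and Lcn2 and Hp peaked in neutrophil-like cells.

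Among integrated classes with at least 20 cells in both libraries, Lbp was highest in the LMC-like and VSMC-like classes. In the clustering of all 4 libraries a small endothelial-like class (2 WT and 6 TNF-Tg cells) held 358 and 1716 CPM, on 10 and 102 UMIs. LMC-like cells held 351 CPM in WT (8183 UMIs) and 727 CPM in TNF-Tg (5344 UMIs), 2.07-fold higher (interval 2.00 to 2.14). The ratio was 1.70-fold with clusters made without integration, and fell just short of 2-fold with each cell weighted equally (log2 ratio 0.99). VSMC-like cells held 424 (WT) and 416 CPM (TNF-Tg), a ratio of 0.980 (interval 0.933 to 1.03). The order of the classes thus turned, with Lbp higher in VSMC-like than LMC-like cells in WT and lower in TNF-Tg, in both cases by more than the counting intervals. Whether the ratio differs between the classes beyond replicate spread could not be tested. Macrophage-like, neutrophil-like and T cell-like classes had at most 8.44 CPM. M1- and M2-macrophage-like cells held 8.36 and 8.44 CPM in WT and 3.40 and 3.20 CPM in TNF-Tg.

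Lcn2 was highest in neutrophil-like cells, at 2965 (WT) and 3284 CPM (TNF-Tg), a ratio of 1.11 (interval 1.05 to 1.17). Outside neutrophils the level was far lower. LMC-like cells held 32.7 CPM in WT (761 UMIs) and 69.2 CPM in TNF-Tg (509 UMIs), 2.12-fold higher (interval 1.89 to 2.37). VSMC-like cells held 7.0 and 5.46 CPM (ratio 0.780, interval 0.503 to 1.19), where the libraries did not differ by more than counting error. This depended on how the class was drawn. With the marker gate the class held 9.39 and 3.13 CPM (ratio 0.333, interval 0.174 to 0.593). Without integration it held 8.24 and 13.7 CPM (ratio 1.66, interval 1.04 to 2.58). Of its 278 TNF-Tg cells, the 256 that were also VSMC-like in the integrated clusters held 4 of the 28 Lcn2 UMIs (2.32 CPM). The matching 742 of its 809 WT cells held 6.71 CPM. Predicted doublets made up 17 of the 278 and 71 of the 809 cells. M1-macrophage-like cells held 5.47 and 13.4 CPM, M2-macrophage-like cells 3.94 and 12.5 CPM (in 12 and 6 cells), and inflammatory monocyte-like cells 41.0 and 80.7 CPM. S100a8, an alarmin, is one of the most abundant neutrophil transcripts. In neutrophil-like cells there were 2.96 Lcn2 UMIs per 100 S100a8 UMIs in WT and 2.76 in TNF-Tg. LMC-like cells had 21.1 in WT and 61.5 in TNF-Tg, while S100a8 itself was lower in LMC-like cells of TNF-Tg (112 CPM) than of WT (155 CPM). The part of free neutrophil RNA in the Lcn2 values was not tested.

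Hp was a gene of neutrophil-like and monocyte-like cells. Neutrophil-like cells held 2524 (WT) and 3009 CPM (TNF-Tg), and inflammatory monocyte-like cells 1057 and 2345 CPM, 2.22-fold higher (interval 2.06 to 2.39). The ratio in inflammatory monocyte-like cells was 1.41-fold without integration (interval 1.31 to 1.52) and 2.30-fold with the marker gate. Without integration the class had 832 TNF-Tg cells. Of these, 322 were M1-macrophage-like in the integrated clusters, with Hp at 352 CPM. The 198 patrolling monocyte-like cells of TNF-Tg stood at 1903 CPM, and WT had only 6 such cells. Cd209a dendritic cell-like cells had 2 Hp UMIs in WT (0.869 CPM) and 80.7 CPM in TNF-Tg, a ratio of 92.8 with an interval of 25.4 to 770. With the marker gate they held 5.90 (WT, 32 UMIs) and 37.2 CPM (TNF-Tg), a ratio of 6.30 (interval 4.24 to 9.61). Without integration the ratio was 180, on 1 UMI in WT. LMC-like cells held 18.6 (WT) and 21.6 CPM (TNF-Tg), and the interval of their ratio, 0.962 to 1.40, includes no difference. In VSMC-like cells Hp was 55.3 (WT) and 44.8 CPM (TNF-Tg). Over all cells Hp was 75.7 and 559 CPM, but the makeup of the libraries differed: inflammatory monocyte-like cells, which held 60.9% of the Hp UMIs of TNF-Tg, numbered 498 there and 66 in WT.

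Among integrated classes with at least 20 cells in both libraries, Cp was the member that was lower in TNF-Tg where it was highest. In the clustering of all 4 libraries a small endothelial-like class (2 WT and 6 TNF-Tg cells) stood higher, at 787 and 892 CPM. M2-macrophage-like cells held 250.4 CPM in WT (3561 UMIs) and 117 CPM in TNF-Tg (367 UMIs), 2.13-fold lower. The share of these cells with a Cp UMI was 82.0% in WT (interval 79.6 to 84.2) and 59.5% in TNF-Tg (interval 53.3 to 65.4). After each cell was thinned to 3000 UMIs the shares were 46.3% and 30.4%. VSMC-like cells held 117 and 83.6 CPM, a log2 ratio of −0.48 (interval −0.63 to −0.33). LMC-like cells went the other way by a small amount, with 32.4 (WT) and 44.9 CPM (TNF-Tg), 1.39-fold higher (interval 1.21 to 1.58). The ratio was 1.23-fold without integration (interval 1.001 to 1.49). After thinning to 3000 UMIs the mean was 0.0993 Cp UMIs per cell in WT and 0.112 in TNF-Tg, and the shares of cells with a Cp UMI were alike, as given below. Neutrophil-like and inflammatory monocyte-like cells had 14 Cp UMIs or fewer in either library.

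The M1-macrophage-like class gave some of the widest ratios, and its cells were not alike in the 2 libraries. Saa3 was 7.39 (WT) and 133 CPM (TNF-Tg) (18.0-fold higher, interval 13.3 to 24.8), Hp was 17.8 and 346 CPM (19.4-fold higher, interval 16 to 23.7), and Cp was 84.1 and 3.80 CPM (22.1-fold lower). Clustered without integration, 464 of the 509 WT cells of this class fell in an M1-macrophage-like cluster. Of the 339 TNF-Tg cells, 322 fell in 2 clusters that both took the name inflammatory monocyte-like and were pooled. 1 of these (346 cells) had Nt5dc2, Ccl2, Ccr1 and Aif1 among its leading genes, as had the integrated M1-macrophage-like cluster. The other (555 cells) was led by Chil3, Ly6c2 and Hp. How the 322 cells divided between them was not determined. The M1-macrophage-like cluster then held only 16 TNF-Tg cells, and in it the log2 ratio of Hp was 1.08 and that of Cp 0.029. That of Saa3 stayed high there, at 5.05 (interval 3.39 to 6.74), on 7 UMIs in WT and 8 in TNF-Tg. Of the 46 Saa3 UMIs of the WT class, 39 lay in 37 cells that fell in the pooled clusters named M2-macrophage-like. Of these 37 cells, 5.41% had a Saa3 UMI. Marker lists moved with the class too: the inflammatory monocyte-like markers summed to 693 (WT) and 1801 CPM (TNF-Tg), and the M1-macrophage-like markers to 4284 and 2544 CPM. The part of this shift in the Saa3, Hp and Cp values was not tested. Of the Saa3 in these TNF-Tg cells, all 666 UMIs lay in 68 cells, with a median of 5 UMIs each. All 68 were in the pooled clusters named inflammatory monocyte-like.

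Counts past a 2-fold difference put the members beside the other genes. In LMC-like cells 3 of the 5 members (Saa3, Lbp and Lcn2) were at least 2-fold higher in TNF-Tg, where 3.15% of all 8007 genes were, and nothing is read from this because the genes were chosen on that contrast. Without integration or with equal cell weights Lbp was under 2-fold. The share was 6.36% in M1-macrophage-like cells, where Saa3, Lcn2 and Hp passed it among 4 members with at least 10 CPM. In M2-macrophage-like cells it was 4.39%, and Lcn2 and Hp passed it among 4, Lcn2 not with a marker gate (1.14 and 1.02 CPM, log2 ratio −0.16). In VSMC-like cells it was 3.45%, and only Saa3 passed it among 4, and not without integration. In inflammatory monocyte-like cells it was 4.99%, and Saa3 and Hp passed it among 3, Hp not without integration. In proliferating cells it was 7.06%, and Lbp, Hp and Cp passed it among 4, Lbp and Cp not in the clustering of all 4 libraries. Cp was at least 2-fold lower in M2-macrophage-like cells (3.2% of all genes) and M1-macrophage-like cells (12.6%), in the latter not without integration. These contrasts share the libraries, and in part the counts of free RNA, with that of the LMC-like cells.

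**Figure D2:**
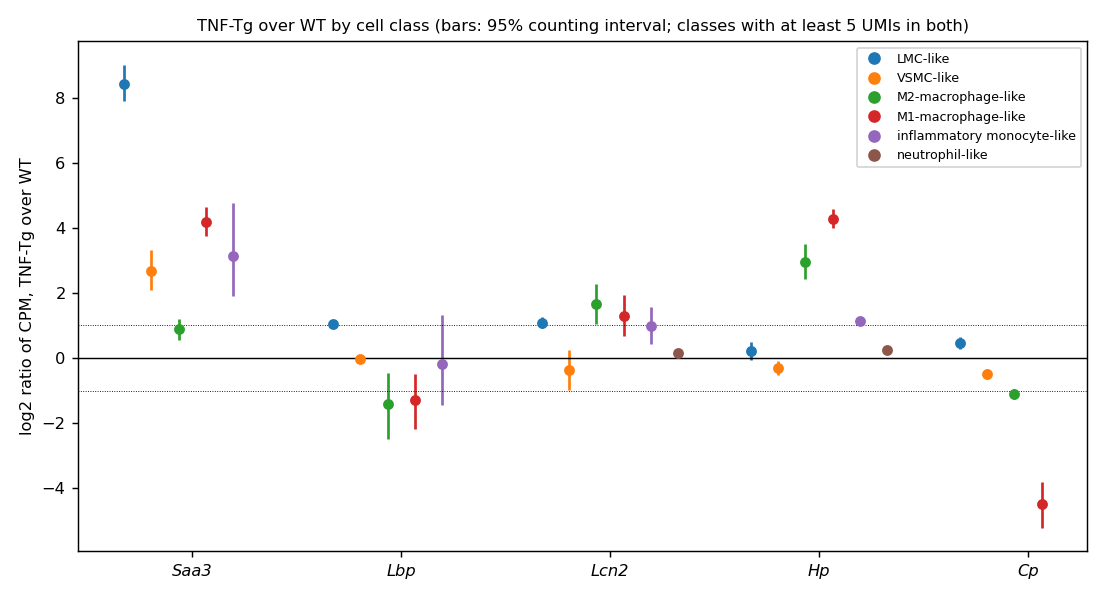
Ratio of the TNF-Tg to the WT level (log2, 0 is no difference) of the 5 genes by cell class, with bars for the 95% counting interval. Saa3 in LMC-like cells stood at 8.42, Lbp at 1.05 in LMC-like and −0.03 in VSMC-like cells, and Cp at −4.47 in M1-macrophage-like cells.

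The 5 genes were spread over LMC-like cells in different ways. Of the WT cells 1.13% had a Saa3 UMI (interval 0.645 to 1.82), and 8.90% of the TNF-Tg cells did (interval 6.61 to 11.7). T cell-like cells, which should lack the gene, gave 1.72% and 1.52% at shallower medians of 8205 and 6447.5 UMIs, against 16173.5 and 12381.5 in LMC-like cells. Each of these shares is 1 cell, of 58 and of 66, so the WT share in LMC-like cells was not told apart from background. An Lbp UMI was seen in 92.6% of LMC-like cells in WT and 93.6% in TNF-Tg, against 0% and 1.52% of T cell-like cells (0 of 58 cells in WT). Nearly every LMC-like cell thus had Lbp in both libraries, and the difference lay in the amount per cell. Lcn2 was seen in 13.6% of LMC-like cells in WT (interval 11.9 to 15.5) and 23.5% in TNF-Tg (interval 19.9 to 27.3). Hp was seen in 5.92% and 7.58%, and Cp in 30.2% and 31.1%.

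Because TNF-Tg cells were shallower, each LMC-like cell with at least 3000 UMIs was thinned to that number, which kept 1410 WT and 525 TNF-Tg cells. Saa3 was then seen in 0.355% of WT and 6.29% of TNF-Tg cells. Lbp was seen in 57.7% (interval 55.1 to 60.3) and 74.1% (interval 70.1 to 77.8), with a mean of 1.09 UMIs per cell in WT and 2.19 in TNF-Tg. The share of cells with 5 to 9 Lbp UMIs was 2.62% in WT and 13.3% in TNF-Tg, so the whole distribution lay higher. Lcn2 was seen in 5.25% and 11.4%. Hp (2.91% and 2.48%) and Cp (9.08% and 9.14%) lay within each other's intervals. At least 3 of the 5 genes were seen together in 16 WT cells (1.13%) and 22 TNF-Tg cells (4.19%), and none of them in 36.0% and 22.5%. Higher shares of the single genes raise such a count by themselves, and no expected share was worked out for 3 genes. For pairs in TNF-Tg, Saa3 and Lbp were together in 5.71% of cells, where the product of their shares was 4.66%. Lbp and Lcn2 were together in 10.3% against 8.47%, and only Hp and Cp lay below the product (0.190% against 0.226%).

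**Figure D3:**
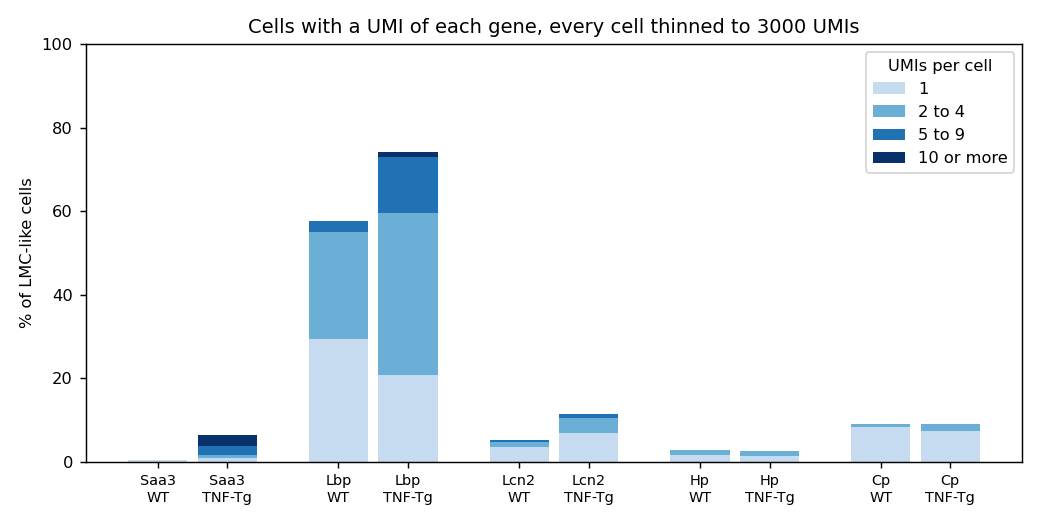
Distribution over LMC-like cells of the UMIs of each gene, after each cell was thinned to 3000 UMIs, in 1410 WT and 525 TNF-Tg cells. Cells with 5 to 9 Lbp UMIs made up 2.62% in WT and 13.3% in TNF-Tg, whereas Saa3 was seen in 6.29% of TNF-Tg cells, some of them with 10 or more UMIs.

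The Saa3 of the LMC-like cells of TNF-Tg came from few cells. Its 3030 UMIs lay in 47 of 528 cells, of which 30 had at least 10 UMIs and 10 had a single one. The highest cell had 412 UMIs and 5 cells held 50% of the total. The 47 cells had a median of 24040 UMIs of all genes and the other 481 cells 12097, and 1 of the 47 was a predicted doublet. Lbp was not concentrated in this way: the tenth of cells with the most UMIs held 31.9% of Lbp in TNF-Tg and 31.0% in WT, against 100% of Saa3. For Lcn2 that share was 80.9% in TNF-Tg and 93.3% in WT.

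The other members were also at a higher level in the 47 cells than in the rest of the TNF-Tg LMC-like cells. Lbp was 919 against 694 CPM, Lcn2 116 against 61.2 CPM, Cp 79.9 against 38.9 CPM and Hp 48.3 against 17.0 CPM. The Hp of the 47 cells was 52 UMIs in 7 cells. Saa1, a serum amyloid A of the liver, was 26.9 against 4.14 CPM. Il6 was 56.7 against 12.9 CPM and Mt1, a metallothionein, 19056 against 6056 CPM. Among genes picked after their values were seen, from those detected in at least 30% of the 47 cells, Ptx3, a pentraxin, was 767 against 110.1 CPM, Ccl2, a monocyte chemokine, 537 against 104 CPM, and Sod2, the mitochondrial superoxide dismutase, 602 against 142 CPM. Cxcl12, a chemokine of stromal cells, was 1936 against 472 CPM. Of the LMC-like markers, Myoc was 95.7 against 1121 CPM, Dpt 740 against 1375 CPM and Pi16 1521 against 1788 CPM. Adamts5 (1156 against 994 CPM) and Ackr3 (575 against 530 CPM) were higher in the 47 cells, and every other marker of this list was lower. VSMC-like markers went both ways. Cxcl14 was 374 against 43.8 CPM and Bgn 230 against 85.1 CPM, whereas Inmt was 19.5 against 180 CPM and C7 24.2 against 143 CPM. S100a8 was 6.50 against 131 CPM, so this neutrophil transcript was lower in the cells with Saa3. The 47 cells were the deeper ones, and deeper cells are more likely to show a Saa3 UMI. Their median was 22 Saa3 UMIs, with 30 cells at 10 or more and 10 cells with a single one. After each LMC-like cell of TNF-Tg was thinned to 3000 UMIs, 33 of 525 cells still had a Saa3 UMI. The part of depth in the differences between the 47 cells and the rest was not tested.

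**Figure D4:**
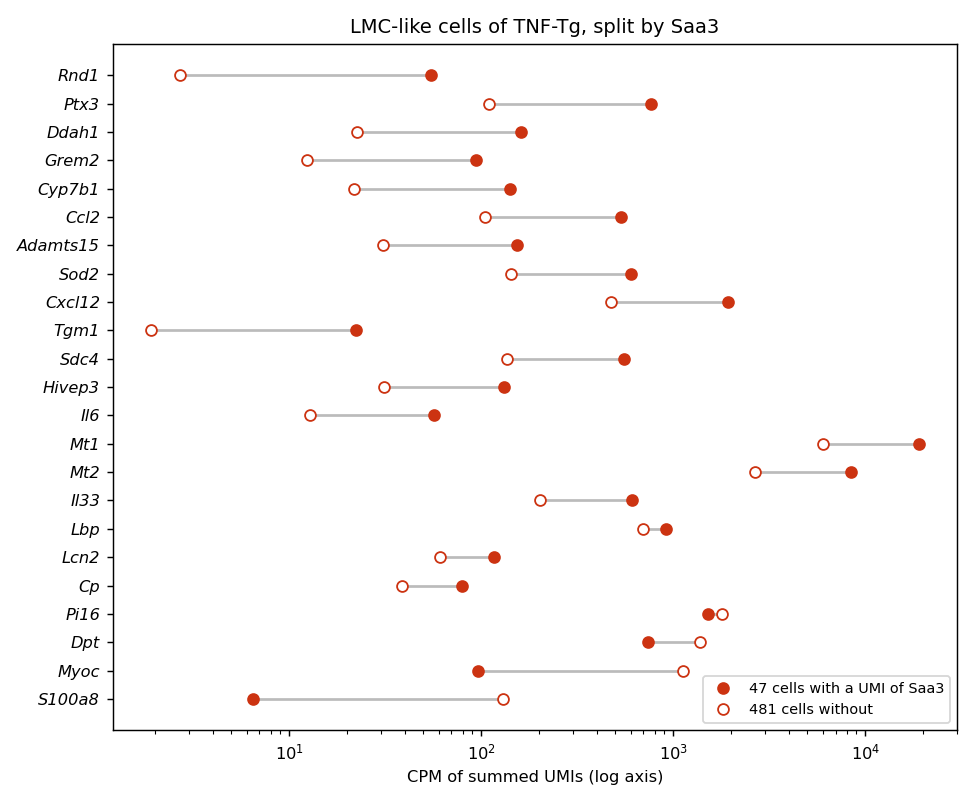
Level of selected genes (CPM, log axis) in the LMC-like cells of the TNF-Tg library with a Saa3 UMI (47 cells) and without one (481 cells). Ptx3 lay at 767 against 110.1 CPM and Myoc at 95.7 against 1121 CPM.

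The position of these cells bears on the class itself. When the libraries were clustered without integration, the WT LMC-like cells stayed together, 1414 of 1420 in an LMC-like cluster. The TNF-Tg LMC-like cells split, with 272 in that LMC-like cluster and 244 in an unnamed cluster of 613 TNF-Tg and 7 WT cells, which also held 351 of the 607 VSMC-like cells of TNF-Tg. Of the 47 cells with Saa3, 45 lay in the unnamed cluster. Saa3 was 688 CPM in the 244 cells and 8.0 CPM in the 272, against 1.20 CPM in WT. Lbp was 818 CPM in the 244 cells and 594 CPM in the 272, both above the 350.5 CPM of WT. In the 47 cells with Saa3 it was 919 CPM, nearer to that of the 244 cells than to that of the 272. Lcn2 was 66.8 and 72.0 CPM, against 32.7 CPM in WT. Cp was 47.4 and 40.3 CPM, against 32.4 CPM in WT. The higher Lbp and Lcn2 thus appeared in either portion of the TNF-Tg cells, and the higher Saa3 chiefly in one. In VSMC-like cells of TNF-Tg, all but 1 of the 147 Saa3 UMIs likewise lay in the 351 cells of the unnamed cluster.

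Markers of other cells in the LMC-like class were compared between the libraries. The neutrophil-like list summed to 63.9 (WT) and 50.3 CPM (TNF-Tg), the M1-macrophage-like list to 14.2 and 9.25 CPM and the inflammatory monocyte-like list to 435 and 459 CPM. The red cell-like list was 16 (WT) and 598 CPM (TNF-Tg), with all 6 of its genes detected in both, and its part in the results was not tested. The endothelial-like list was 2.62 and 1.5 CPM.

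Of the 32 other acute-phase proteins listed, 9 reached 10 CPM in LMC-like cells, 5 of them were at least 2-fold higher in TNF-Tg (3.15% of all genes) and none 2-fold lower (3.12%), with a median log2 ratio of 1.27 beside −0.02 over all 8007 genes. Mt2 and Mt1, metallothioneins that bind zinc and copper, were 532 and 1620 CPM in WT and 3501 and 7958 CPM in TNF-Tg, log2 ratios of 2.72 and 2.30. Saa1 had 6 UMIs in WT and 55 in TNF-Tg (log2 ratio 4.86, interval 3.65 to 6.37). Serpina3i, an antichymotrypsin homologue, had 14 and 45 UMIs (log2 ratio 3.35). The lowest ratios were those of Trf, transferrin (84.7 and 58.3 CPM, log2 ratio −0.54), and C4b, a complement component (975 and 677 CPM, log2 ratio −0.53). In VSMC-like cells 3 of 9 were at least 2-fold higher (3.45% of all genes) and 2 lower (8.21%), with a median of 0.47 beside −0.15 over all genes. Mt2 was 577 and 1838 CPM there, and Mt1 2481 and 4985 CPM.

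Of the 17 transcription regulators of the response, 15 reached 10 CPM in LMC-like cells and 3 were at least 2-fold higher (3.15% of all genes) and none lower (3.12%), with a median log2 ratio of 0.23 beside −0.02 over all genes. They were Nfkbie, an NF-kB inhibitor (2.66 and 12.5 CPM, log2 ratio 2.23), Bcl3, an NF-kB cofactor (17.8 and 49.1 CPM, 1.46), and Socs3, the feedback inhibitor of IL-6 signalling (117 and 278 CPM, 1.25). Relb followed at 0.91. The lowest was Tnfaip3, which curbs NF-kB (11.5 and 6.66 CPM, log2 ratio −0.79), with Cebpa at −0.37 and Cebpd at −0.26.

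Of 19 cytokines that induce the response and their receptors, 12 reached 10 CPM, 2 were at least 2-fold higher and 1 was at least 2-fold lower (3.15% and 3.12% of all genes), with a median log2 ratio of 0.43 beside −0.02. Il6 had 53 UMIs in WT (2.27 CPM) and 142 in TNF-Tg (19.3 CPM), a log2 ratio of 3.09 (interval 2.62 to 3.57). Lifr, a receptor chain for leukaemia inhibitory factor, was 8.28 and 19.0 CPM (1.20), and Osmr, the oncostatin M receptor, 51.3 and 87.3 CPM (0.77). Tnfrsf1a, the main TNF receptor, was 90.7 and 148 CPM. Il6ra, the ligand-binding chain of the IL-6 receptor, was 109 and 37.8 CPM (log2 ratio −1.53). Lif was at −1.12, Il1rap at −0.70 and Il1b at −0.41.

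Of the 18 receptors, ligands and partners of the 5 proteins, 7 reached 10 CPM in LMC-like cells, with a median log2 ratio of −0.03 beside −0.02 over all genes. None was at least 2-fold higher (3.15% of all genes) or lower (3.12%), which for so few genes is near those shares. Hmox1, haem oxygenase, was 13.2 and 21.4 CPM (0.69), and Fth1, the ferritin heavy chain, was at 0.20. Below 10 CPM, Scarb1, a lipoprotein receptor that binds serum amyloid A, was at 1.33 (44 UMIs in WT and 35 in TNF-Tg). Tlr4, the lipopolysaccharide receptor, was 40.0 and 27.9 CPM (−0.52). Cd163, the haptoglobin receptor, was 5.92 and 2.72 CPM. Of the 12 neutrophil granule genes, 3 reached 10 CPM, with a median of −0.46 beside −0.02 over all genes. None of the 3 differed by 2-fold, again near the shares over all genes for so few. S100a9, the partner of S100a8, was 245 and 140.2 CPM (−0.80), and Lyz2, lysozyme, was 53.7 and 104 CPM (0.95). Chil3 had 5 UMIs in WT and 33 in TNF-Tg.

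The tdT libraries gave 2 further samples of the stromal classes without the transgene, after all 4 libraries were clustered together (683 and 94 LMC-like cells, 257 and 112 VSMC-like cells). They were sorted for tdTomato and not on scatter alone, so the values stand side by side and are not compared. In LMC-like cells Saa3 had 6 UMIs in tdT1 (0.734 CPM) and 0 in tdT2 (a limit of 5.73 CPM for 3 UMIs), beside 1.20 (WT) and 388 CPM (TNF-Tg) in this clustering. Lbp in LMC-like cells was 349 (tdT1) and 203 CPM (tdT2) (276 ± 104, SD, n = 2), beside 352 (WT) and 726 CPM (TNF-Tg). Cp was 15.4 and 13.4 CPM (14.4 ± 1.44, SD, n = 2), beside 32.6 and 44.5 CPM. Lcn2 was 5.14 (tdT1) and 1.91 CPM (tdT2, 1 UMI), beside 33.0 and 68.9 CPM. Hp was 0.489 CPM in tdT1 and had 0 UMIs in tdT2, beside 18.5 and 20.6 CPM. In VSMC-like cells Lbp was 265 and 230 CPM (247 ± 24.8, SD, n = 2), beside 462 and 473 CPM, and Cp was 190 and 83.2 CPM (136 ± 75.2, SD, n = 2), beside 114 and 85.7 CPM.

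**Figure D5:**
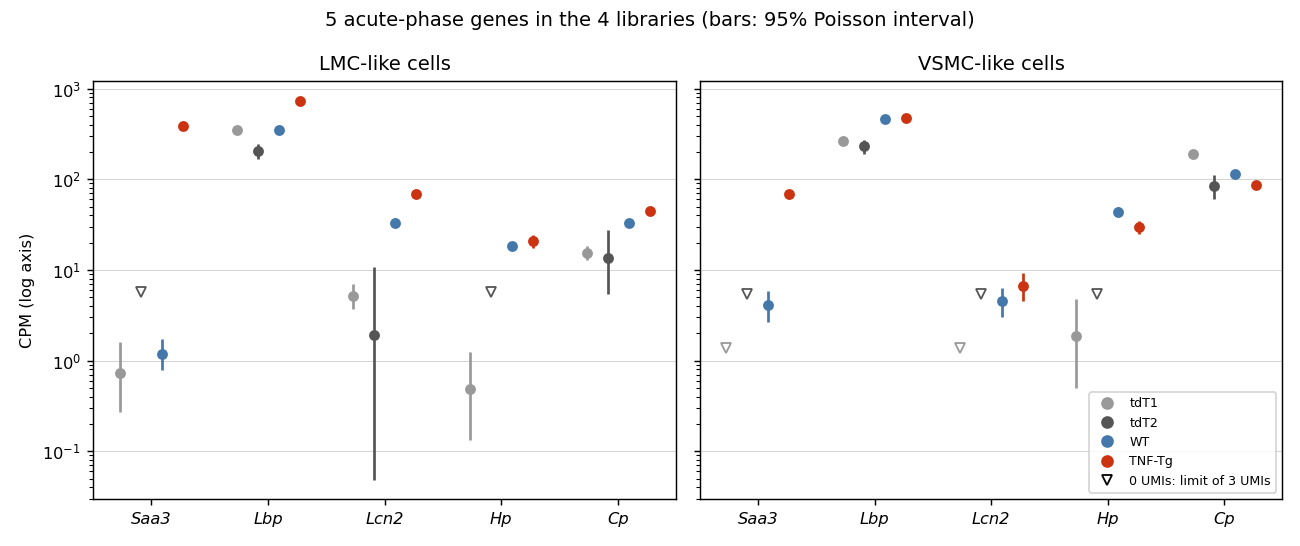
Level (CPM, log axis) of the 5 genes in LMC-like and VSMC-like cells of the 2 tdT libraries, WT and TNF-Tg, with bars for the 95% Poisson interval and open triangles for 0 UMIs at the limit of 3 UMIs. In LMC-like cells Saa3 lay at 1.20 CPM in WT and at 388 CPM in TNF-Tg, and the tdT libraries, sorted differently, are shown beside them.

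The genes with the most similar pattern to each member were found by Pearson's r of log2(CPM + 1) over 32 points, the 16 classes with at least 20 cells in both libraries. The points share libraries and free RNA, and r is a description over 12281 genes. Saa3 was nearest to C1rl (0.75), Nr1h3 (0.69) and Car13 (0.68), so no gene followed it closely. Lbp was nearest to Ehd2 (0.94), Eln (0.94), which encodes elastin, and S100a16 (0.94). Lcn2 was nearest to Wfdc21 (0.89), Trem1 (0.86) and S100a8 (0.86), and Hp to Slpi (0.92), Msrb1 (0.87) and Ly6i (0.86). Cp was nearest to Slco2b1 (0.92), Itga9 (0.92) and Slc10a6 (0.91).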

How the data were processed

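Single-cell libraries were made with the droplet 3′ assay from sorted PLV and SSV cells. Per the file headers, the deposited UMI counts came from Cell Ranger 3.1.0 (tdT1) and 6.0.1 (the other 3). The submitters' processing notes name Cell Ranger 3.1, Cell Ranger 3.1.0 and Seurat 4.0.3 on mm10. The counts are filtered cell matrices, and no further cell was removed. Cells were clustered anew with Seurat 5.3.0 (2000 variable features less the 102 members and listed genes, 30 dimensions, resolution 0.5, seed 42), which may differ from the study's clusters. Names needed at least 3 markers of a single best type among a cluster's 50 genes of highest fold, with at least 1 among the first 10, unless over 50% of its cells were predicted doublets. This naming rule was set after the clusters were seen. Doublets were predicted with Scrublet (scanpy 1.11.5; 4, 0, 137 and 74 cells in tdT1, tdT2, WT and TNF-Tg), kept, and left out as an alternative. The caller marked few cells in the tdT libraries.

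UMIs were summed by class and library and scaled to CPM. Intervals are exact (Poisson for levels, Clopper-Pearson for shares, conditional binomial for ratios; scipy 1.17.1), at 95%, and cover counting error only. A class sum of 0 was set to the limit of 3 UMIs, and no ratio is given where both sums were at or under it. With 1 library per condition no count model or p-value was used. The scripts were checked on simulated counts. TMM factors came from edgeR 4.0.16. All genes with at least 10 CPM in either library were counted against a 2-fold difference. From each list, at most the 4 largest rises and 4 largest falls in LMC-like cells with at least 20 UMIs were named, and the 3 genes nearest to each member; 1 listed gene is not reported here. Members and lists were chosen with earlier results of these data known. Alternatives were predicted doublets, cell filters, a marker gate, the other clusterings, equal cell weights, TMM, the highest cells left out, and thinning to 3000 or 1500 UMIs. No paired analysis was possible because the groups share fewer than 2 replicate numbers.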

Additional observations from a re-analysis of the deposited data

Results flagged for a closer look

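Cp differed in direction between classes. In proliferating cells (75 in WT, 46 in TNF-Tg) its log2 ratio of TNF-Tg to WT was 1.89, from 15.1 and 55.9 CPM. In the clustering of all 4 libraries the proliferating class held 5 Cp UMIs in WT and 0 in TNF-Tg, and an endothelial-like class of 6 TNF-Tg cells held 53, so the higher Cp was not seen there. In M1-macrophage-like cells the log2 ratio was −4.47, from 84.1 and 3.80 CPM, and 0.029 with clusters made without integration. With 1 library per condition the difference between the classes was not tested. In proliferating cells the endothelial-like markers summed to 140 (WT) and 417 CPM (TNF-Tg), with all 10 detected in TNF-Tg, and the red cell-like markers to 19.0 and 9445 CPM. The part of these cells in the result was not tested.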

How the results depend on the processing

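In LMC-like cells, Saa3, Lbp, Lcn2 and Cp kept their direction under all 8 alternatives, and Hp in 4 of 8. The log2 ratio of Saa3 (8.42) was 6.15 with classes from a marker gate, 2.76 with clusters made without integration, where the unnamed cluster is no longer in the class, and 11.99 without the 1% of cells with the most Saa3, which left 1269 UMIs in TNF-Tg and 1 in WT. So few WT cells had a Saa3 UMI that leaving out this 1% removed nearly all of them. The direction under that alternative was therefore fixed beforehand. That of Lbp (1.05) was 0.76 without integration and 0.99 with each cell weighted equally, both under a 2-fold difference. Lcn2 (1.08) was 1.27 without predicted doublets, 1.31 with the gate and 1.55 without the 1% highest cells. Hp (0.22) was −0.36 with the gate, −0.075 without integration and −0.20 with equal cell weights. The count of genes at least 2-fold higher (252) was 857 with no filter on level, 105 at 50 CPM or more and 243 with TMM factors. In other classes, 23 results under 175 alternatives gave 120 that moved by less than the counting interval, 51 that moved further and 4 that changed sign: Cp in M1-macrophage-like cells without integration (0.029), Lcn2 in M2-macrophage-like cells with the gate (−0.16), Saa3 in VSMC-like cells without integration (−0.27) and Lbp in proliferating cells in the clustering of all 4 libraries (−2.21). Of these 4, the intervals of the first 3 include no difference (−0.76 to 0.72, −3.36 to 2.01 and −1.82 to 0.99), so no reversal is shown. That of Lbp in proliferating cells was −5.34 to −0.17. The 23 results do not take in every member and class, and values beyond these 4 changed sign too. Saa3 in M2-macrophage-like cells did so without the 1% of cells with the most Saa3, as given above. In VSMC-like cells Hp (−0.30) was 0.021 and Lcn2 (−0.36) was 0.73 without integration. Most Lcn2 UMIs of that TNF-Tg class lay in cells outside the integrated VSMC-like class, as given above. The cause of these changes was not tested. Cp in proliferating cells gave no ratio in the clustering of all 4 libraries, where TNF-Tg had 0 UMIs. Leaving out either tdT library leaves the value of the other, given above. The few Saa3 UMIs of the WT LMC-like cells, 28, set the width of its ratio.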
